A study of Mus musculus with 36 samples.

Results

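Histone lysine methyltransferases and demethylases were chosen by gene symbol, as every gene of the count table named Kmt2a to Kmt2e, Kmt5, Kdm1 to Kdm8, Setd, Setdb, Ehmt, Suv39h, Suv420h, Whsc1, Nsd, Ash1l or Dot1l. The rule found 45 of 15730 genes, and all 45 passed the filter on low counts. The family itself was selected on earlier results of these data in diabetic mice given lipoxin A4, so values of that comparison are given below as a description, with no test.

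RNA was measured by sequencing of ribosomal-RNA-depleted, directional libraries from the kidney cortex of male ApoE-/- mice on a C57BL/6 background, animals without apolipoprotein E that are prone to atherosclerosis. All 6 groups carry that deletion. Mice were made diabetic at age 6 weeks by 5 daily injections of 55 mg/kg streptozotocin, which kills the beta cells that make insulin, and nondiabetic mice were the other arm. In each arm, 6 libraries came from mice given 0.1% ethanol as vehicle, 6 from mice given LXA4 (lipoxin A4, at 5 µg/kg), which is made in the body from arachidonic acid and helps inflammation resolve, and 6 from mice given its synthetic analog benzo-LXA4 (1.7 µg/kg), by injection in weeks 10 to 16 of a 16-week study. The doses of the compounds differ, so their values stand side by side and were not tested against each other. The labels number the replicates 1 to 6 without saying that each is a separate mouse, so p-values measure the spread between these libraries, which may be in part technical.

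Lysine methyltransferases place methyl groups on histone tails, most of them through a SET domain, and demethylases of the KDM1 and Jumonji families remove them. Methylation of H3K4 and H3K36 accompanies active genes, methylation of H3K9, H3K27 and H4K20 accompanies repressed chromatin, and H3K79 is methylated by Dot1l. In kidney these enzymes have been studied for lasting gene expression after high glucose, with Setd7 and H3K4 methylation among the best known examples.

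The promoters of 3 members named below are shown, as RefSeq gives them on GRCm38.p6: Setd7, Suv420h2 (Kmt5c in RefSeq) and Kmt2d. Setd7 and Suv420h2 were past the threshold for diabetes under vehicle, each call lost in 6 of 12 fits without 1 library. Kmt2d was past the threshold with LXA4 in diabetic mice, the comparison on which the family was selected, and nothing is read from that call. Each run is the part of the 250 bases before the RefSeq start that lies outside the gene as GENCODE M21 annotates it. Capitals mark matches, on either strand, to CCAAT, to GCGNGGGCG, a loose form of the recognition sequence of EGR1, or to GGGGCGGGG, the GC box. Setd7 lies at chr3:51560880-51561073 on the minus strand, Suv420h2 at chr7:4739877-4740114 on the plus strand and Kmt2d at chr15:98871206-98871455 on the minus strand.
Setd7: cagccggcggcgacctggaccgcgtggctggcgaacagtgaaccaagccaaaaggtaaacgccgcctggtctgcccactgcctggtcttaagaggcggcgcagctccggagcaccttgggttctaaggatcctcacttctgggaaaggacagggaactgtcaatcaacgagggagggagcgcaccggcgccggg
Suv420h2: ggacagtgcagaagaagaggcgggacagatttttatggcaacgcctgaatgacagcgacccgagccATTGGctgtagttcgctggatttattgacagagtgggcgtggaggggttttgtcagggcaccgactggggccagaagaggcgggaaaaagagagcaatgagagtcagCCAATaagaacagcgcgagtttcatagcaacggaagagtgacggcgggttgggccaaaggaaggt
Kmt2d: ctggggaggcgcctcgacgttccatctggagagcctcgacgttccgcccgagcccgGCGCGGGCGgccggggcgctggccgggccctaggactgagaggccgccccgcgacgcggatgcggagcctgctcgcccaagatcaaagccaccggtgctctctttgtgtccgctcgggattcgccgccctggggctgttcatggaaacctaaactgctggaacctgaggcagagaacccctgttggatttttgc
GCGNGGGCG occurred 1 time in the Kmt2d run, CCAAT 2 times in the Suv420h2 run, and none of the 3 motifs in the Setd7 run. RefSeq start windows were found for 33 members, with 45 start windows in all, of 250 bases each. GCGNGGGCG was in 7 of these 45 windows (15.6%), in 7 members, Ehmt1, Ehmt2, Kdm2b, Kdm3a, Kdm7a, Kmt2d and Kmt5a, against 4.7% of all 32851 windows of that length. The strict form, GCGTGGGCG, which is contained in the loose form, was in 1 member window, at Ehmt2, and in 0.536% of all windows. GGGGCGGGG was in 28.9% of the member windows and 10.4% of all, and CCAAT in 40% and 33.8%. Member windows held a median of 21 CpG dinucleotides and 63.6% G and C, against 6 and 52.4% over all windows. These matches describe letters and not binding.

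Library totals ran from 8896193 to 43305005 counts, and the members together took 0.369% of all counts. At the level of the gene, the summed counts of a member over the 36 libraries ran from 1092 to 291892. Kidney markers were present: the 10 proximal tubule markers summed to a median of 20600 CPM (counts per 1e6 of the library total scaled by TMM) in nondiabetic vehicle libraries. Podocyte, endothelial and collecting duct markers summed to medians of 251, 435 and 349 CPM there. A pair of libraries stood apart. In diabetic LXA4 replicate 6, the shallowest library, the genes Gm26917, Gm42418 and Gm23935 took 55.6% of the counts, which left 17994 counts for the 45 members. In nondiabetic vehicle replicate 3 the same 3 genes took 16.6%, and in the other 34 libraries at most 6.48%. Values with and without diabetic LXA4 replicate 6 are given where leaving it out moves a result, and nondiabetic vehicle replicate 3 is named where it does.

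Most members were expressed at moderate levels in the cortex. On a scale of CPM per kb of exon, the median member stood at 7.56 in nondiabetic vehicle libraries and the median gene of the table at 4.21. Setd3, a SET protein that methylates actin, was the highest at 24.9 ± 0.7 CPM per kb (SD, n = 6), followed by Kmt2e at 16.8 ± 2.49 and Nsd1, an H3K36 methyltransferase, at 16.6 ± 0.798. Kmt2e and Nsd1 differed by less than their spread. Suv39h2, an H3K9 methyltransferase, was the lowest at 0.273 ± 0.087 CPM per kb, below Kdm4d at 0.661 ± 0.102 and Setd4 at 0.843 ± 0.163. Among the H3K4 methyltransferases, Kmt2c stood at 11.8 ± 1.39, Kmt2d at 9.41 ± 1.63, Kmt2a at 7.94 ± 0.566 and Kmt2b at 4.94 ± 1.08 CPM per kb, while Setd7 stood at 2.88 ± 0.352.

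**Figure D1:**
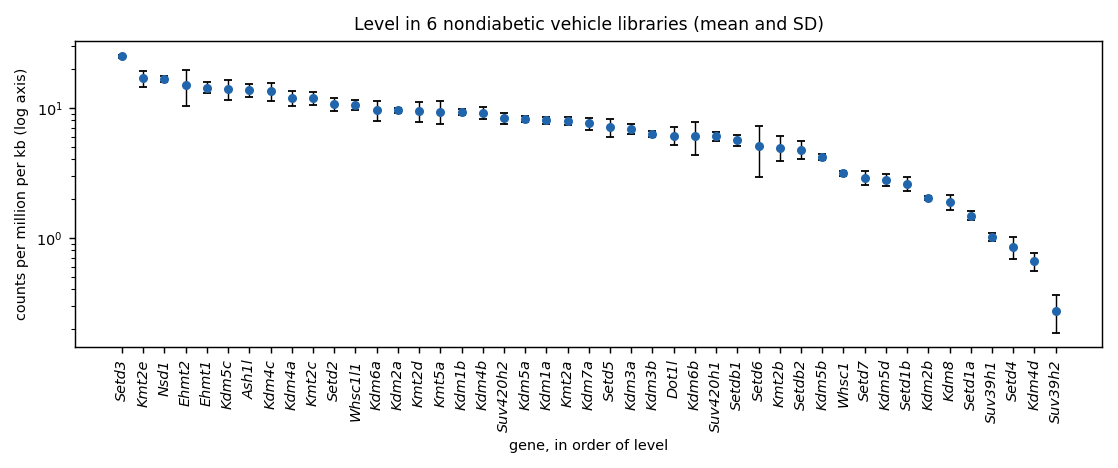
Level of each of the 45 genes in the 6 nondiabetic vehicle libraries, in CPM per kb of exon on a log axis, as mean and SD. Levels span from 24.9 for Setd3 to 0.273 for Suv39h2, and Ehmt2, Setd6 and Kdm6b have wide bars, each with 1 high library, nondiabetic vehicle replicate 3.

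For diabetes under vehicle 2 members were past the threshold, Setd7 up and Suv420h2 down. That is 2 of 45 members (4.44%), beside 5.6% of all 15726 genes tested (edgeR quasi-likelihood F test, Benjamini-Hochberg adjusted p under 0.05). The members' share was thus near that of all genes. The median log2 difference of the members was 0.01 and that of all genes -0.01. Diabetes under vehicle shares the diabetic vehicle libraries with the comparison on which the family was selected.

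Setd7 (GRCm38 chr3:51515319-51560879) places a single methyl group on H3K4 and also methylates transcription factors. It ran from 25.3 to 36.1 CPM in nondiabetic vehicle libraries, with a median of 30.7. In diabetic vehicle libraries it ran from 31.7 to 44.6 CPM, with a median of 38.9. The medians were apart, and the groups overlapped. Setd7 rose by a log2 of 0.31 (95% interval 0.14 to 0.48, edgeR adjusted p = 0.0238, n = 6 per group). Without diabetic LXA4 replicate 6, which is in neither group but shares the estimate of spread, the value was 0.32 (edgeR adjusted p = 0.00379). The call was lost in 6 of 12 fits that left out 1 library of the comparison, where the values stayed between 0.26 and 0.37, and the libraries whose removal ended it were nondiabetic vehicle replicates 3, 5 and 6 and diabetic vehicle replicates 3, 4 and 5. An exon of 5031434O11Rik on the opposite strand overlaps 1.2% of the exon bases of Setd7, and how strand was used in counting is not given in the sources used here.

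Suv420h2 (GRCm38 chr7:4740115-4747514) adds the later methyl groups to H4K20 at heterochromatin. It ran from 28.7 to 38.2 CPM in nondiabetic vehicle libraries (median 33.1) and from 25.1 to 32 CPM in diabetic vehicle libraries (median 27.7). The ranges overlapped between 28.7 and 32 CPM. It fell by 0.23 on the log2 scale (95% interval -0.37 to -0.1, edgeR adjusted p = 0.0338). The fall was also lost in 6 of 12 fits without 1 library, namely nondiabetic vehicle replicates 1, 3 and 6 and diabetic vehicle replicates 3, 4 and 5. With a trend against transcript GC content removed from each library, the log2 difference was -0.15 (edgeR adjusted p = 0.265).

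Just outside the threshold stood Kdm1b, an H3K4 demethylase, at a log2 of -0.16 (edgeR adjusted p = 0.0912) and Suv39h1, an H3K9 methyltransferase, at 0.33 (edgeR adjusted p = 0.11). Fitted without diabetic LXA4 replicate 6, 7 of 45 members passed (15.6%), beside 11.8% of all 15728 genes. Suv39h1 (0.34), Setd7 and Kdm2b (0.18) rose in that fit, and Kdm5c (-0.24), Kmt2d (-0.24), Suv420h2 (-0.22) and Kdm1b (-0.15) fell. Kdm5c and Kmt2d were highest in nondiabetic vehicle replicate 3, at 133 and 250 CPM, where the other 5 libraries reached at most 97.3 and 188 CPM. With both of the libraries that stood apart left out, 3 members passed: Setd7 (0.26), Suv420h2 (-0.19) and Kdm5c (-0.15), while Kmt2d stood at -0.15 (edgeR adjusted p = 0.1). The share of all genes called in that fit is not given here. Fitted on the 12 libraries of the comparison alone, 0 members passed by edgeR. In the fit of all libraries 4 members had an unadjusted p under 0.05, beside 3313 of 15726 genes.

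By role, the list of H3K36 methyltransferases had 7 measured genes, Setd2, Nsd1, Whsc1, Whsc1l1, Ash1l, Setd3 and Setd5, of which Setd3 and Setd5 are also in the list of SET proteins with mainly non-histone or unsettled substrates. Their log2 differences were -0.03 to 0.09, and 0 passed in edgeR. The 8 H3K4 methyltransferases had values from -0.25 (Kmt2d) to 0.31 (Setd7), with 1 past the threshold. Their list includes Kmt2e, which is also among the SET proteins with mainly non-histone or unsettled substrates. The H3K9 group of 6 ran from -0.23 (Ehmt2) to 0.33 (Suv39h1). Ehmt2 had 133 CPM in nondiabetic vehicle replicate 3 and at most 78.6 CPM in the other 5, and stood at -0.04 without the libraries that stood apart. The 10 demethylases of H3K9 and H3K36 ran from -0.08 to 0.17, with none past the threshold. Of partner proteins, 0 of 11 measured subunits of KMT2 and SET1 complexes passed, and 1 of 11 measured genes of Polycomb repressive complex PRC2 did: Ezh2, the H3K27 methyltransferase, rose by a log2 of 0.43 (edgeR adjusted p = 0.0121). These counts moved without diabetic LXA4 replicate 6, where 11.8% of all genes passed. Then 1 H3K4 methyltransferase rose and 1 fell, and 1 H3K9 methyltransferase and 1 demethylase of H3K9 and H3K36 rose. Of KMT2 and SET1 subunits 0 rose and 2 fell, and of PRC2 genes 1 rose and 2 fell. Of the 10 proximal tubule markers 2 fell in this comparison, with sums of 15200 to 22900 CPM in nondiabetic and 12500 to 17900 CPM in diabetic vehicle libraries, and their part in the members' values was not tested.

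**Figure D2:**
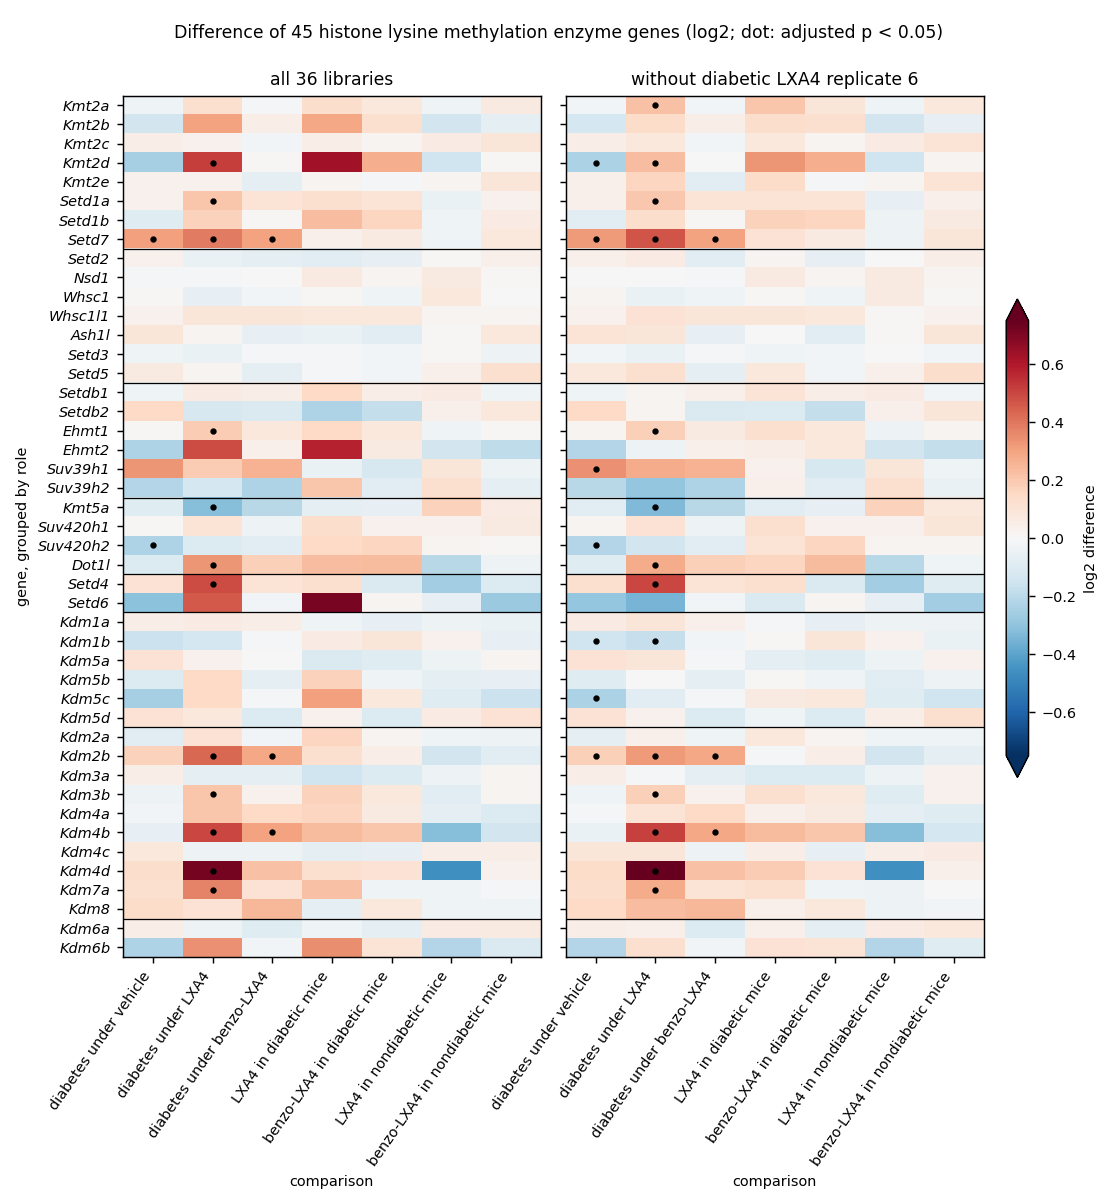
Log2 difference of each of the 45 genes (rows, grouped by role) in 7 comparisons (columns), from all 36 libraries on the left and without diabetic LXA4 replicate 6 on the right. Dots mark edgeR adjusted p under 0.05 and are left out for LXA4 in diabetic mice, where no test is given. The dots gather in the column of diabetes under LXA4, with 12 on the left and 14 on the right, and Setd6 and Ehmt2 are dark red with LXA4 only on the left.

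Diabetic and nondiabetic mice differed in more members under LXA4: 12 of 45 passed, 11 up and 1 down, beside 27.7% of all genes tested. Without diabetic LXA4 replicate 6, 14 passed, 12 up and 2 down, beside 30.7% of all genes. The members' share was thus near that of all genes. Their median log2 difference was 0.11, against 0.05 over all genes. Long genes as a class also stood higher. Among those with a longest transcript of 8 kb and over, the 13 members had a median of 0.11 and all genes 0.08. Without replicate 6 these values were 0.09 and 0.11. From 6 to 8 kb the members had 0.15 and all genes 0.08, or 0.12 and 0.09 without replicate 6. This comparison shares the diabetic LXA4 libraries with the comparison on which the family was selected. Whether diabetes acted differently under LXA4 than under vehicle is the interaction, given further below.

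Of the H3K9 and H3K36 demethylases, 5 of 10 were past the threshold, all up, beside 27.7% of all genes in either direction. The lists by role are small, and none was tested as a list. Kdm4b (GRCm38 chr17:56326062-56402870) removes methyl groups from H3K9 and H3K36. It ran from 33.8 to 38.7 CPM in nondiabetic LXA4 libraries (median 35.6) and from 48.7 to 52.7 CPM in diabetic LXA4 libraries (median 50.5). Every diabetic library lay above every nondiabetic one, and diabetic LXA4 replicate 6, at 50.1 CPM, was in the middle of its group. Kdm4b rose by a log2 of 0.5 (95% interval 0.36 to 0.64, edgeR adjusted p = 1.05e-05) and by 0.51 without that library.

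Kdm2b, an H3K36 demethylase that binds CpG islands, ran from 17.2 to 22 CPM in nondiabetic and from 22.5 to 39.7 CPM in diabetic LXA4 libraries, with medians of 20 and 24.9. The groups did not overlap, and the highest value was that of diabetic LXA4 replicate 6. Kdm2b rose by 0.43 on the log2 scale (edgeR adjusted p = 0.000772) and by 0.32 without that library (edgeR adjusted p = 3e-04). An exon of Rnf34 on the other strand covers 5.8% of its exon bases.

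Kdm4d, an H3K9 demethylase at the low end of the range, ran from 1.01 to 1.63 CPM and from 1.18 to 2.56 CPM, with medians of 1.37 and 2.4. Diabetic LXA4 replicate 6 was here the lowest of its group. Kdm4d rose by a log2 of 0.72 (95% interval 0.38 to 1.05, edgeR adjusted p = 0.00216), or by 0.8 without that library. Kdm7a, a demethylase of H3K9 and H3K27, rose by 0.37 (0.28 without replicate 6), with 131 CPM in replicate 6 and 82 to 97.6 CPM in the other 5 diabetic LXA4 libraries. Kdm3b, an H3K9 demethylase, rose by 0.21 (0.18 without replicate 6), and the lincRNA Gm26538 on the opposite strand overlaps 24.6% of its exon bases. The call of Kdm3b was lost with a trend against transcript length removed from each library, and on the compared groups alone.

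Of the H3K4 methyltransferases, 3 of 8 passed, all up, again beside 27.7% of all genes. Setd7 rose by a log2 of 0.39 (95% interval 0.21 to 0.56, edgeR adjusted p = 0.00146). It ran from 29.7 to 31.9 CPM in nondiabetic LXA4 libraries; in diabetic ones the lowest was 27.9 CPM, in replicate 6, and the other 5 lay between 39.8 and 43.5 CPM, above all nondiabetic libraries. Without replicate 6 it rose by 0.47. Kmt2d, which methylates H3K4 at enhancers, rose by 0.52 (edgeR adjusted p = 0.00938) and by 0.23 without replicate 6 (edgeR adjusted p = 0.0243). The call of Kmt2d was lost with the length trend removed and on the compared groups alone. Setd1a, which methylates H3K4 at promoters, rose by 0.21 (edgeR adjusted p = 0.0287). With the GC trend removed Setd1a stood at 0.12 (edgeR adjusted p = 0.257), and the gene model Gm49388 on the same strand shares 51.8% of its exon bases. The call of Setd1a was also lost with the length trend removed and on the compared groups alone.

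Outside these groups, Dot1l, the H3K79 methyltransferase, rose by 0.33 (edgeR adjusted p = 0.00293), Setd4, a SET protein of unsettled substrates, by 0.49 (edgeR adjusted p = 0.00974), and Ehmt1, which pairs with Ehmt2 to methylate H3K9, by 0.19 (edgeR adjusted p = 0.0136). The call of Ehmt1 was lost without nondiabetic LXA4 replicate 3, that of Kdm3b without diabetic LXA4 replicate 5, and that of Setd1a without nondiabetic LXA4 replicates 4, 5 or 6 or diabetic LXA4 replicate 4. Kmt5a, which places the initial methyl group on H4K20, was the member that fell, by 0.32 on the log2 scale (edgeR adjusted p = 0.0319); it was lost without nondiabetic LXA4 replicates 4 or 6 or diabetic LXA4 replicates 1, 3 or 4. Just outside stood Kdm4a at 0.21 (edgeR adjusted p = 0.0551) and Kmt2b at 0.3 (edgeR adjusted p = 0.0571). Without replicate 6, Kdm4a stood at 0.1 and Kmt2b at 0.14, while Dot1l (0.28), Setd4 (0.5), Ehmt1 (0.18), Setd1a (0.2) and Kmt5a (-0.33) passed there too. The 7 measured genes of the H3K36 list again stayed between -0.06 and 0.09, with 0 past the threshold in edgeR and the lowest adjusted p at 0.26. Without replicate 6, Kmt2a (0.22, edgeR adjusted p = 0.00499) rose and Kdm1b (-0.17, edgeR adjusted p = 0.0142) fell as well.

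The partner proteins went in both directions, in a comparison where 27.7% of all genes passed, or 30.7% without replicate 6. Of 11 measured subunits of KMT2 and SET1 complexes, 3 fell and 0 rose by edgeR: Psip1 (-0.39), Men1 (-0.37) and Wdr82 (-0.27), with 3 down and 0 up also without replicate 6. Of 11 PRC2 genes, Phf19 rose by 1.06 and Rbbp4 fell by 0.28. Without replicate 6, 2 rose and 2 fell. Of 16 other histone methylation enzymes measured, 4 rose, led by Prdm16 (1.09), and Mina (-0.32) fell; without replicate 6, 5 rose, with Prdm16 at 0.84, and 1 fell. Among 8 partners of demethylases, Rcor2 rose by 1.84 (1.45 without replicate 6) and Hdac2 fell by 0.29.

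Cell type markers moved in the same comparison. Of 10 proximal tubule markers 5 fell, or 7 without replicate 6, and their summed level ran from 19900 to 22300 CPM in nondiabetic and from 13000 to 17700 CPM in diabetic LXA4 libraries. Of 7 smooth muscle, pericyte and fibroblast markers 2 rose, Myh11 and Col1a1, with sums of 135 to 216 CPM (median 151) and 173 to 552 CPM (median 193). The 552 CPM was replicate 6, with 209 CPM the next highest, and without that library Myh11 rose (1.33) and Col1a1 stood at 0.21 (edgeR adjusted p = 0.665). Of 7 urothelium and inner medulla markers 2 rose, or 3 without replicate 6, with sums of 3.14 to 47.1 CPM (median 18.4) and 19.4 to 200 CPM (median 39.8). No gene of these 3 lists was at 0 in all 36 libraries, and whether any was at 0 throughout a group is not given here. Their part in the members' values was not tested. In bulk tissue, fewer cells of a type and less RNA per cell cannot be told apart.

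Under benzo-LXA4, 3 of 45 members rose with diabetes and 0 fell by edgeR, beside 4.06% of all genes tested. Without diabetic LXA4 replicate 6 in the shared fit the count was again 3, beside 8.28% of all genes. Kdm4b ran from 37.4 to 42.9 CPM in nondiabetic and from 44.6 to 54.8 CPM in diabetic benzo-LXA4 libraries, without overlap, and rose by a log2 of 0.3 (edgeR adjusted p = 0.0111). With the GC trend removed it stood at 0.26 (edgeR adjusted p = 0.105). Setd7 ran from 30.9 to 35.7 and from 38 to 44.4 CPM, also without overlap, and rose by 0.3 (edgeR adjusted p = 0.0322). Kdm2b rose by 0.29 (edgeR adjusted p = 0.0426), from a median of 20.8 to one of 25.7 CPM. The call of Kdm2b was lost with the length trend removed. Leaving out 1 library at a time ended the call of Setd7 in 8 of 12 fits (nondiabetic replicates 1, 3, 5 and 6, diabetic replicates 2, 4, 5 and 6) and that of Kdm2b in 9 (nondiabetic replicates 1 to 4, diabetic replicates 2 to 6), while Kdm4b passed in all 12. The 5 adipose markers passed the test as lower in this comparison, with medians of their sums of 14.5 CPM in nondiabetic and 12.8 CPM in diabetic benzo-LXA4 libraries. Nondiabetic benzo-LXA4 replicate 1 alone had 569 CPM, and the next highest 50.7 CPM. All 5 erythroid markers fell, with medians of 323 and 142 CPM. The part of these markers was not tested.

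Setd7 was past the threshold in each of the 3 arms, and Kdm4b in those given LXA4 or benzo-LXA4. For Setd7 the log2 difference with diabetes was 0.31 under vehicle, 0.39 under LXA4 and 0.3 under benzo-LXA4, in arms that share no library. For Kdm4b it was -0.06 (95% interval -0.2 to 0.08), 0.5 and 0.3.

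**Figure D3:**
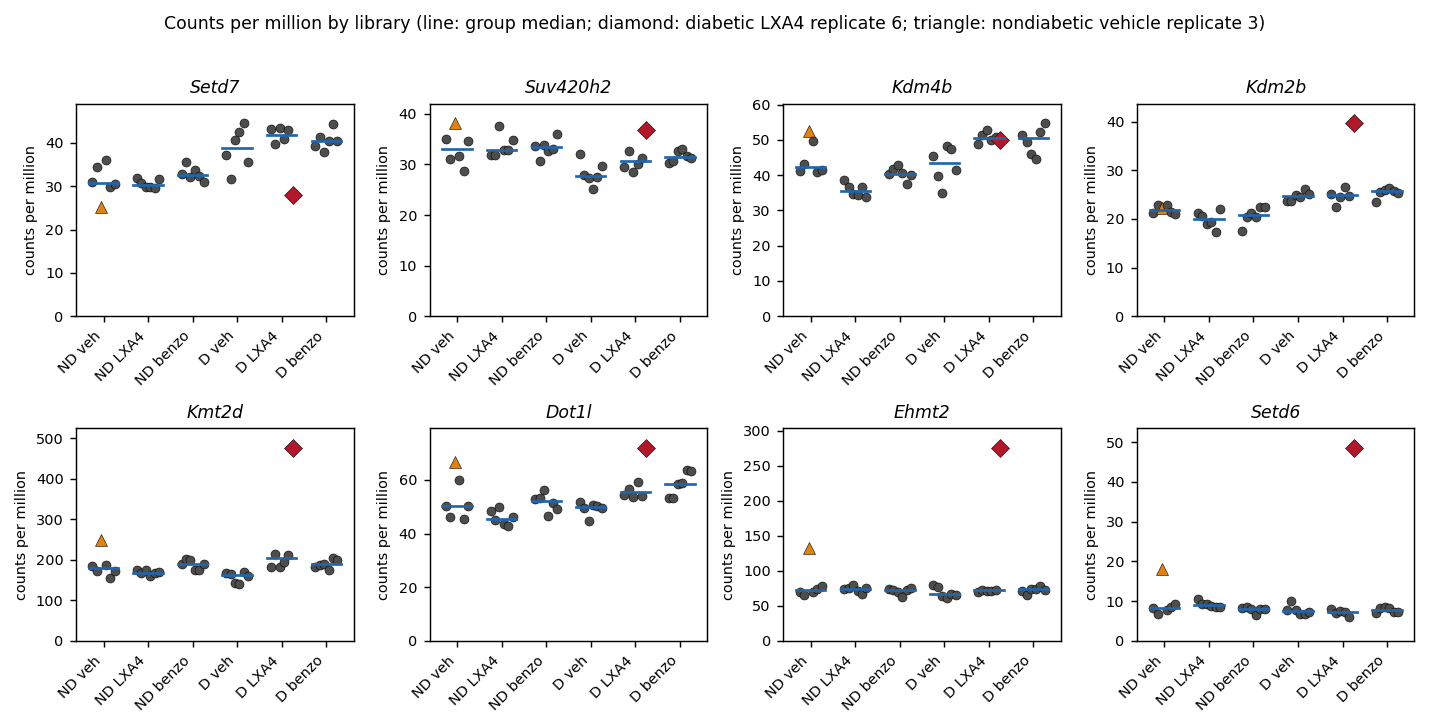
CPM of 8 members in each of the 36 libraries by group (ND, nondiabetic; D, diabetic; veh, vehicle; benzo, benzo-LXA4), with group medians as lines. The diamond (diabetic LXA4 replicate 6) and the triangle (nondiabetic vehicle replicate 3) lie above the rest for Kmt2d, Ehmt2 and Setd6, at 477 and 250 CPM for Kmt2d, while Kdm4b keeps the diamond within its group.

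LXA4 in diabetic mice is the comparison on which the family was selected, so its counts describe the selection and nothing is read from them. Of 45 members 1, Kmt2d, is past the threshold of the edgeR fit, where the share of all genes is 0.356%, and without diabetic LXA4 replicate 6 there is none, where that share is 0.273%. Log2 differences were above 0 for 32 of 45 members and 51.4% of all genes, with a median of 0.12 against 0.01 over all genes. Without replicate 6 they were above 0 for 35 members and 46.8% of all genes, with a median of 0.07 against -0.01.

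Kmt2d ran from 140 to 171 CPM in diabetic vehicle libraries (median 162). In diabetic LXA4 libraries it was 182, 215, 183, 195 and 213 CPM in replicates 1 to 5 and 477 CPM in replicate 6. All 6 lay above the vehicle libraries, and replicate 6 was the highest. The log2 difference was 0.63 (95% interval 0.33 to 0.93) with replicate 6 and 0.33 (95% interval 0.17 to 0.49) without it. In diabetic benzo-LXA4 libraries Kmt2d ran from 174 to 204 CPM (median 189), again above all diabetic vehicle libraries, and in nondiabetic vehicle libraries from 156 to 250 CPM (median 180).

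Setd6, a SET protein that methylates the NF-kB subunit RelA, had the largest value of all members, a log2 difference of 0.71. Its CPM in diabetic LXA4 replicates 1 to 5 were 8.01, 7.04, 7.46, 7.3 and 6.02, and 48.6 in replicate 6, while diabetic vehicle libraries ran from 6.65 to 10.1 CPM. Replicate 6 alone stood apart, and without it the difference was -0.11 (95% interval -0.42 to 0.2), a change of sign. Ehmt2, the H3K9 methyltransferase also called G9a, had 70, 73.3, 71.8, 71.3 and 72.8 CPM in replicates 1 to 5 and 276 in replicate 6, so that its log2 difference went from 0.58 to 0.05 without that library. Kdm6b, an H3K27 demethylase, went from 0.35 to 0.11, with 83.6 CPM in replicate 6 and 35.1 to 42 CPM in the other 5. Kdm5c, an H3K4 demethylase, went from 0.31 to 0.07.

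Kdm4b and Dot1l kept their direction without that library. Kdm4b was higher by 0.24 with and without it, its 6 LXA4 libraries lying above the highest diabetic vehicle library at 48.3 CPM. Dot1l was higher by 0.23 with it and 0.16 without it, its LXA4 libraries starting at 53.7 CPM and its vehicle libraries ending at 51.7 CPM. Kmt2a depended on it in the other direction, from 0.13 with it to 0.21 without it: replicate 6 had 94.5 CPM and the other 5 had 142 to 162 CPM. The groups did not overlap for Kmt2d, Kdm4b and Dot1l, 3 of 45 members, all higher with LXA4, and without replicate 6 also for Kmt2a, 4 of 45. Over all genes those shares are 0.458% and 0.788%, and since the family was selected on this comparison no excess can be read from them. In the fit of all libraries the 8 genes of the H3K4 methyltransferase list, Kmt2e among them, were above 0, beside 51.4% of all genes. Their median was 0.12, and 0.13 without replicate 6, and nothing is read from this in the comparison of selection. The H3K9 methyltransferases had a median of 0.15 that was 0.04 without it.

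The longest members include the large H3K4 methyltransferases: the longest annotated transcript is 19.82 kb for Kmt2d, 16.47 for Kmt2a, 14.97 for Kmt2c, 12.78 for Nsd1 and 11.64 for Ash1l. The shortest are those of Setd6 (1.71 kb), Kdm8 (2.39), Setd4 (2.62), Kdm4d (2.69) and Kmt5a (2.74). The median member, at 6.36 kb, was longer than the median gene, at 3.23 kb, and 13 members reach 8 kb. With LXA4 in diabetic mice these 13 had a median log2 difference of 0.13, with 10 above 0. All 870 genes of that length had 0.01, with 53.3% above 0. Without diabetic LXA4 replicate 6 the values were 0.08, with 11 above 0, and 0.05, with 67.2% of all genes of that length above 0. Genes under 2 kb then had a median of -0.07. Across the 45 members, Pearson's r of the log2 difference with log2 length was 0.06 (Spearman's correlation 0.12) with all libraries and 0.41 (0.28) without replicate 6, and over all genes 0.02 (0.06) and 0.13 (0.21). Members share their libraries and are not independent, so these are descriptions. Kmt2d and Kmt2a stood above the median of their length class, by values of 0.33 and 0.21 against 0.05 without replicate 6. With a length trend removed from every library, Kmt2d was at 0.72 with replicate 6 and at 0.24 without it.

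The same values also varied along GC content. The longest transcripts of 10 members have more than 55% G and C: Ehmt2 (60.8%), Suv420h2 (60%), Kdm6b (59.6%), Kmt2b (59.1%), Setd1b (59%), Kdm4b (58.7%), Kmt2d (58.4%), Dot1l (57.5%), Setd1a (57%) and Setd6 (55.4%). At the other end 10 have less than 45%, down to 39.6% for Kdm7a. With LXA4 in diabetic mice the GC-rich 10 were all above 0, with a median of 0.27, and the GC-poor 10 had a median of -0.01; over all genes the medians of those classes were 0.17 and -0.08. Without replicate 6 the members' medians were 0.12, with 9 of 10 above 0, and 0.02, beside 0.02 and -0.03 over all genes. Spearman's correlation of the log2 difference with GC content over the 45 members was 0.61 with and 0.45 without replicate 6, and 0.37 and 0.11 over all genes.

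**Figure D4:**
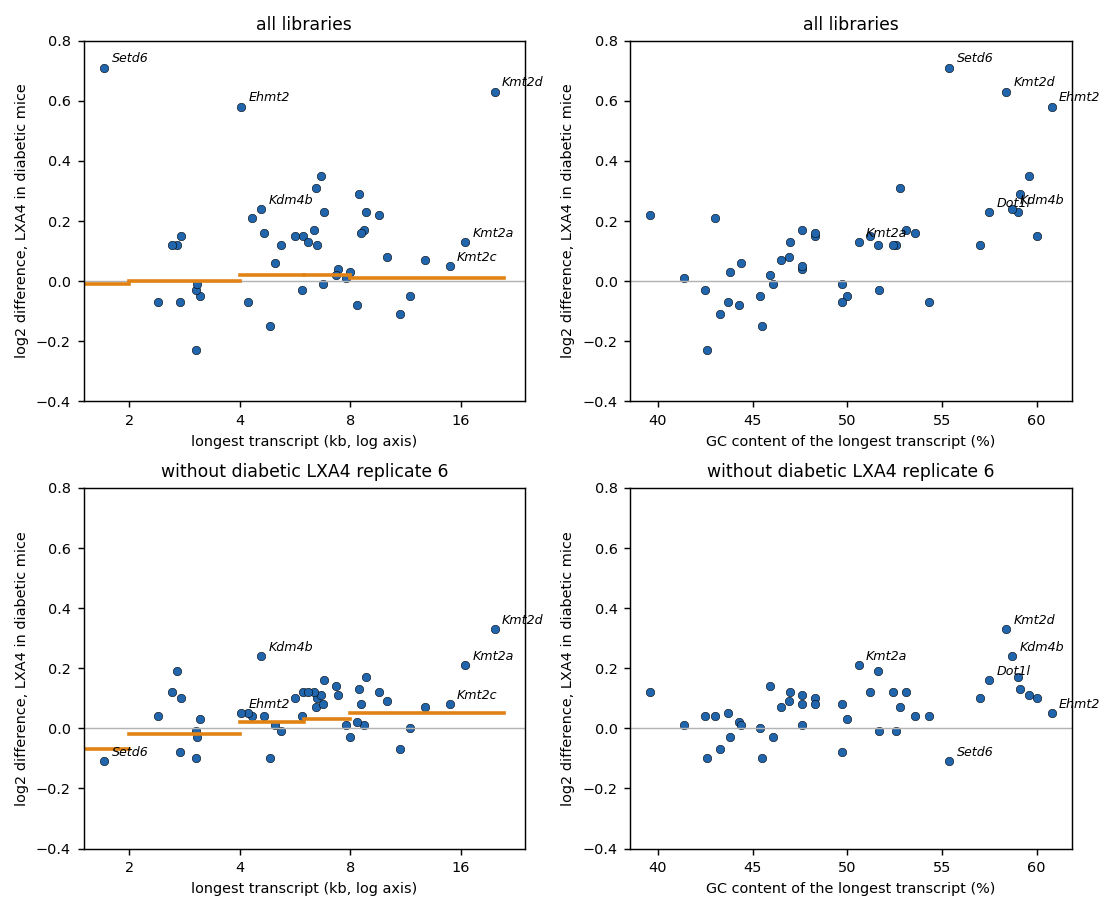
Log2 difference with LXA4 in diabetic mice of each of the 45 genes against the length (left, log axis) and the GC content (right) of its longest transcript, from all libraries (top) and without diabetic LXA4 replicate 6 (bottom). Orange lines are the medians of all genes in each length class. Setd6, Ehmt2 and Kmt2d are at 0.71, 0.58 and 0.63 on top, and at -0.11, 0.05 and 0.33 below.

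In other comparisons the correlation with GC content depended on nondiabetic vehicle replicate 3. Spearman's correlation over the members was -0.45 for diabetes under vehicle, -0.65 for LXA4 and -0.47 for benzo-LXA4 in nondiabetic mice, 3 comparisons that share the nondiabetic vehicle libraries. Without the libraries that stood apart these values were -0.18, -0.11 and 0.19, so that the last changed sign. For benzo-LXA4 in diabetic mice, which uses neither library, it was 0.71 in both fits, with 10 of 10 GC-rich and 1 of 10 GC-poor members above 0, and 0.27 over all genes. That comparison shares the diabetic vehicle libraries with LXA4 in diabetic mice and with diabetes under vehicle. The part of base composition in the members' differences was not tested.

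The libraries that stood apart differed from their groups in some of the same members. In diabetic LXA4 replicate 6 the members deviated from the mean of the other 5 libraries by 2.76 for Setd6, 1.94 for Ehmt2, 1.27 for Kmt2d, 1.13 for Kdm6b and 0.86 for Kmt2b on the log2 scale. In nondiabetic vehicle replicate 3 the same members deviated by 1.16, 0.9, 0.51, 0.8 and 0.65, in the same direction. Other members deviated in diabetic LXA4 replicate 6 and little or oppositely in nondiabetic vehicle replicate 3. Among them were Kdm5b (0.79 and 0.04), Kdm2b (0.69 and 0.03) and Kdm7a (0.55 and -0.31). The GC-rich 10 had a median deviation of 0.62 and 0.46 in these libraries and the GC-poor 10 one of -0.19 and -0.29, while all genes of those classes had 0.67 and 0.43, and -0.68 and -0.32. Single members went against that order in replicate 6, among them Kdm8 (-1.61 at 54.3% GC), Kdm4d (-0.98 at 51.6%), Kdm4b (-0.02 at 58.7%), Kdm7a (0.55 at 39.6%) and Suv39h2 (1.37 at 43%). Kdm8, Kdm4d and Suv39h2 stood at 1.65, 1.18 and 2.6 CPM in that library, the shallowest, so their deviations rest on few counts. Kdm8 and Kdm4d are in neither GC class. The SD of the deviations over the 45 members was 0.86 and 0.42 in these libraries and 0.08 to 0.19 in the other 34.

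**Figure D5:**
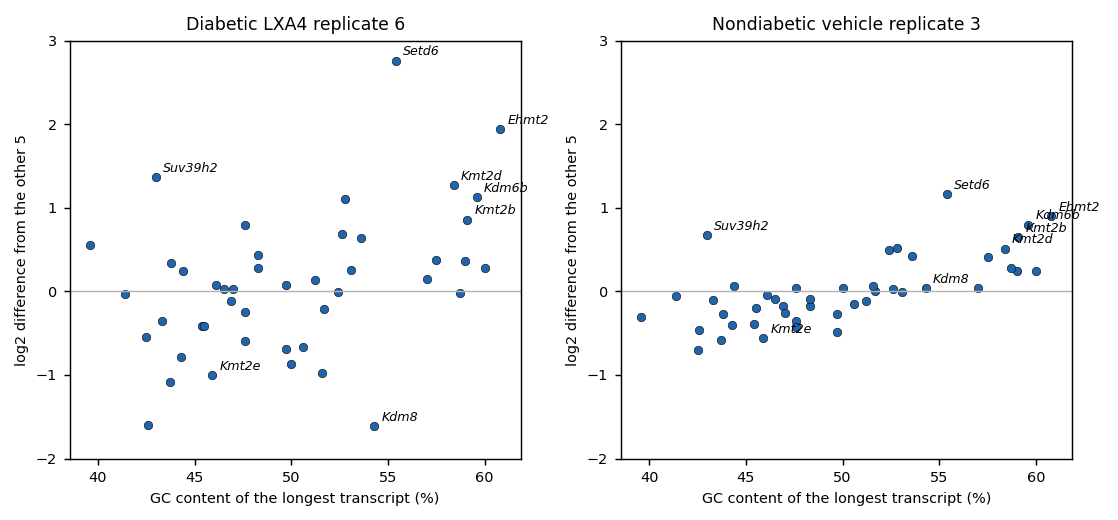
Deviation of each of the 45 genes from the mean of the other 5 libraries of its group (log2) against GC content of its longest transcript, for diabetic LXA4 replicate 6 (left) and nondiabetic vehicle replicate 3 (right), on equal vertical axes. Setd6, Ehmt2, Kmt2d, Kdm6b and Kmt2b lie high in both, with Setd6 at 2.76 and 1.16.

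Benzo-LXA4 changed 0 of 45 members in diabetic mice by edgeR, beside 0% of all genes, and 0 without diabetic LXA4 replicate 6 in the shared fit, beside 0.0509%. By unadjusted p under 0.05 in edgeR the members' counts were 3 and 5, beside 891 of 15726 and 1579 of 15728 genes. DESeq2 called 0 members and voom 2, and their counts over all genes are not given here. The largest differences were those of Kmt2d (0.27, 95% interval -0.03 to 0.57), Dot1l (0.24, 95% interval 0.08 to 0.4) and Kdm4b (0.21, 95% interval 0.07 to 0.35), with edgeR adjusted p from 0.487 to 0.936. Dot1l ran from 53.2 to 63.7 CPM with benzo-LXA4 and from 44.7 to 51.7 CPM with vehicle, with no overlap. Side by side, at unequal doses and against the same vehicle libraries, LXA4 (without replicate 6) and benzo-LXA4 gave 0.33 and 0.27 for Kmt2d, 0.24 and 0.21 for Kdm4b, and 0.16 and 0.24 for Dot1l.

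In nondiabetic mice, LXA4 changed 0 of 45 members by edgeR, beside 0% of all genes, with or without diabetic LXA4 replicate 6. By unadjusted p under 0.05 in edgeR the members' counts were 3 and 5, beside 967 of 15726 and 1719 of 15728 genes. DESeq2 called 1 member and voom 0, and their counts over all genes are not given here. Kdm4b had the lowest p: all 6 LXA4 libraries, from 33.8 to 38.7 CPM, lay below all 6 vehicle libraries, from 40.8 to 52.5 CPM, with a log2 difference of -0.32 (95% interval -0.46 to -0.18, edgeR adjusted p = 0.314). Kdm4d stood at -0.46 and Dot1l at -0.21, each with edgeR adjusted p = 0.807. Without the libraries that stood apart, nondiabetic vehicle replicate 3 among them, Kdm4b stood at -0.27 and Dot1l at -0.13. With benzo-LXA4 the counts in nondiabetic mice were 0 members and 0% of all genes by edgeR, with and without replicate 6. By unadjusted p under 0.05 in edgeR 1 member passed, beside 452 of 15726 genes, and DESeq2 and voom called 0 members. Kdm4b stood at -0.14 there (95% interval -0.29 to 0).

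Whether LXA4 acted differently in diabetic and nondiabetic mice contains the comparison on which the family was selected, and is given as a description. The edgeR fit puts 1 member, Kdm4b, past the threshold, where the share of all genes is 0.248%, and without replicate 6 it puts 2 there, Kdm4b and Kmt2d, where that share is 0.375%. Nothing is read from these counts. For Kdm4b the medians were 42.4 CPM with vehicle and 35.6 with LXA4 in nondiabetic mice, and 43.5 and 50.5 in diabetic mice: lower with LXA4 in the former and higher in the latter. The difference of these log2 differences was 0.56 (95% interval 0.36 to 0.76) with and without replicate 6, and 0.36 with the GC trend removed. It was no longer past the threshold with that trend removed or without diabetic vehicle replicate 3. For Kmt2d it was 0.78, or 0.48 without replicate 6 and 0.37 without both libraries that stood apart. For Dot1l these values were 0.43, 0.37 and 0.29. For Setd7 it was 0.07 (95% interval -0.17 to 0.32). For benzo-LXA4 the interaction was past the threshold for 0 members by edgeR, beside 0% of all genes, with and without replicate 6. There 2 members had an unadjusted p under 0.05 in edgeR, beside 673 of 15726 genes. Without replicate 6 these counts were 6 members and 1238 of 15728 genes, and DESeq2 and voom called 0 members. Kdm4b had the largest value there, at 0.35 (95% interval 0.15 to 0.56, edgeR adjusted p = 0.888).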

How the data were processed

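Sequencing libraries from kidney cortex of 36 samples in 6 groups were analysed from the deposited table of raw counts per gene. Per the submitters' processing notes, the authors used bcl2fastq 2.17.1.14, STAR, featureCounts and the build GRCm38. Other versions, the annotation release, the strand setting and the handling of reads with several mapped places are not stated in the labels or notes. Of 15730 gene IDs, 15692 were found in GENCODE release M21, which gave transcript lengths, GC content and coordinates.

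Counts were tested with edgeR 4.0.16 (quasi-likelihood F test, TMM scaling, filterByExpr) in R 4.3.3, in 1 fit of all 36 libraries with a term per group, with Benjamini-Hochberg adjustment over all 15726 genes and a threshold of 0.05. Levels are CPM relative to the TMM-scaled library total, also per kb of exon. Alternatives were DESeq2 1.42.0 (its size factors too), voom with quality weights (limma 3.58.1), other filters, a replicate block, length offsets, removal of structural RNA genes and leaving out each library. Fits without diabetic LXA4 replicate 6, without that library and nondiabetic vehicle replicate 3, without structural RNA and 3 further genes, and with a smooth GC trend removed were chosen after seeing the data. The test was checked on simulated data.

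The members and lists were chosen with earlier results of these data known. Named with values were members called in a tested comparison, the 4 largest differences with LXA4 in diabetic mice and with diabetes under vehicle, Kmt2a to Kmt2d, the 5 longest and 5 shortest members, those just outside a threshold, and others chosen after their values were seen. Samples were not paired by replicate number in the main fit, and no pairing by number was seen over all libraries. No 2 libraries held identical values.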

Additional observations from a re-analysis of the deposited data

Results flagged for a closer look

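Among 20 members, each in 6 groups of 6 libraries, 21 of 120 groups had 1 library far from the other 5. Chance gives about 5% of independent groups, but these groups share libraries and some of the 20 members were chosen for differences that diabetic LXA4 replicate 6 drives, so the count is not read against that share. Of these, 10 were diabetic LXA4 replicate 6 and 6 were nondiabetic vehicle replicate 3.

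In diabetic LXA4 replicate 6, the high values were those of Kmt2d (477 CPM), Ehmt2 (276 CPM), Kdm7a (131 CPM), Kmt2b (84.5 CPM), Kdm6b (83.6 CPM), Dot1l (72 CPM), Setd6 (48.6 CPM) and Kdm2b (39.7 CPM). Kmt2a (94.5 CPM) and Setd7 (27.9 CPM) were low there. In nondiabetic vehicle replicate 3, Kmt2d (250 CPM), Ehmt2 (133 CPM), Kmt2b (67.7 CPM), Kdm6b (64.4 CPM) and Setd6 (18 CPM) were high and Kmt2c (185 CPM) was low. Kmt2d, Ehmt2, Kmt2b, Kdm6b and Setd6 were thus high in both libraries.

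Single libraries also stood apart for Setd6, at 10.1 CPM in diabetic vehicle replicate 2 and 6.51 CPM in nondiabetic benzo-LXA4 replicate 4. Dot1l was low in diabetic vehicle replicate 3 (44.7 CPM), Kdm3b high in diabetic vehicle replicate 5 (91.1 CPM) and Kdm2b low in diabetic benzo-LXA4 replicate 1 (23.4 CPM).

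Kdm4b differed between diabetic and nondiabetic mice in its difference with LXA4, by 0.56 on the log2 scale. The comparison on which the family was selected is part of that value.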

How the results depend on the processing

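Counts of members past the threshold moved as follows. For diabetes under vehicle, 2 became 1 with a filter of 5 CPM, 1 with the GC trend removed, 7 without diabetic LXA4 replicate 6, 0 on the compared groups alone and 5 with voom, and ran from 0 to 3 when each library was left out. With LXA4 in diabetic mice, 1 became 0 with the replicate block, with the length offset, with the block and length offset, with structural RNA genes removed, without diabetic LXA4 replicate 6 and on the compared groups alone, and 2 with voom and with DESeq2, with 0 to 1 over left-out libraries. With benzo-LXA4 in diabetic mice, 0 became 1 without the 2 libraries that stood apart and 2 with voom. With LXA4 in nondiabetic mice, 0 became 1 with DESeq2. For diabetes under LXA4, 12 became 7 on the compared groups alone and 19 with voom, with 10 to 14 over left-out libraries. For diabetes under benzo-LXA4, 3 became 5 without the 2 libraries and 5 with voom, with 1 to 3 over left-out libraries. For the interaction of LXA4 with diabetes, 1 became 0 with the block and length offset, with the GC trend removed and on the compared groups alone, 2 without diabetic LXA4 replicate 6 and without the 2 libraries, and 3 with DESeq2, with 0 to 2 over left-out libraries. The causes were not tested. Except for fits without diabetic LXA4 replicate 6, the share of all genes called in each of these settings is not given here. These counts are therefore not read as changes of the family. Setd6 with LXA4 in diabetic mice changed sign, to -0.11 without diabetic LXA4 replicate 6 or the 2 libraries and -0.04 with voom, with -0.11 to 0.88 over left-out libraries. Without diabetic LXA4 replicate 6, calls over all genes went from 881 to 1852 for diabetes under vehicle. They went from 4353 to 4827 for diabetes under LXA4 and from 638 to 1302 under benzo-LXA4. Same-numbered libraries deviated together with correlations of -0.5 to 0.5 (median -0.01, 33 of 90 pairs over 0.1), and 5 of 36 libraries correlated best with their own number. No pairing by number was seen over all libraries, and these values cannot exclude one for some numbers. The low depth of diabetic LXA4 replicate 6, with 17994 counts over the members, limits its values most for the lowest members.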
